A study of Homo sapiens with 12 samples.

Results

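The genes described here are 44 interferon-stimulated genes, a list of named genes that cells switch on after contact with interferon, followed through 2 established human mantle cell lymphoma lines. Each gene was represented by 1 probe set, the one with a single gene symbol and the highest mean log2(signal + 3) over the 12 arrays. Of the 44 genes, 43 had such a probe set among the 19775 genes that could be represented, and STAT2 was not analysed here. A mean signal of at least 12.55 over the 12 arrays, the median of the array medians, was required for testing. This filter kept 39 of the 44 genes, and 11548 genes in all. IFI44L, IFIT1, RSAD2 and CMPK2 lay under it.

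The study asked what loss of the kinase NIK, the product of MAP3K14, does in mantle cell lymphoma cells. Per the labels, TRAF2 is altered by a nonsense mutation in Z-138, and TRAF3 is deleted in Maver-1; both encode proteins that restrain NIK. Each line held 1 of 3 doxycycline-inducible hairpins, NIKsh#1, NIKsh#2 or a non-targeting control (NTC), and all 6 cultures grew under puromycin, the selection for the hairpin vector. Doxycycline was given at 100 or 0 ng/ml for 7 days, and 1 Affymetrix array was run per culture and condition. The groups were therefore Z-138 NIKsh (2 hairpins), Z-138 NTC (1 culture), Maver-1 NIKsh (2 hairpins) and Maver-1 NTC (1 culture), each with and without doxycycline. Each TRAF genotype is represented by 1 line, so genotype and line cannot be told apart. The 3 untreated cultures of a line differ in their construct, and nothing in the labels says that a construct was introduced more than once, so the spread behind each p-value is that of these cultures alone.

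Interferons are secreted proteins by which cells warn one another of infection. Type I and type III interferons act through receptors and the kinases JAK1 and TYK2 to bring IRF9 and its partners to a DNA element called the interferon-stimulated response element (ISRE) in the promoters of its target genes. The proteins made from those genes sense viral RNA, block viral entry and translation, attach the ubiquitin-like protein ISG15 to other proteins, and adjust the signal itself. B cells and lymphomas derived from them can keep part of this programme on without any added interferon, and NF-kB, the pathway that NIK feeds, shares several target genes with it.

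The promoters of 5 members that hold an ISRE core are shown first, so that the shared element can be seen in genes on opposite sides of the line comparison and in IFIH1. They are the 2 lowest in Z-138 (HERC5 and IFI44), the 2 matched genes with a core that were higher there (IFITM1 and MX1), and IFIH1, which passed a test with doxycycline. RefSeq promoter sequences of GRCh38.p14, from 250 bases before to 50 bases after the annotated start, were matched by symbol for 36 of the 44 genes. The ISRE core was searched as GAAA, any 2 bases and GAAA again, on both strands, overlapping matches included. At least 1 match was present in 24 of the 36 members (66.67%), against 3.574% of 35116 promoters. The core of the gamma-activated site, TTC, any 3 bases and GAA, was found in 10 of the 36 (27.78%), against 7.657% of all promoters, and a kB site, GGGA, any base and TTTCC, in 2 of the 36, IFIH1 and OAS3 (5.56%), against 0.558%. In the sequences below the capitals mark matches to the ISRE core or its reverse complement, and overlapping matches run together. HERC5 and IFIH1 hold 3 matches each, IFITM1 holds 2, and IFI44 and MX1 hold 1 each. The windows lie at chr4:88456869-88457168 on the plus strand (HERC5), chr1:78649539-78649838 on the plus strand (IFI44), chr2:162318635-162318934 on the minus strand (IFIH1), chr11:313790-314089 on the plus strand (IFITM1) and chr21:41420308-41420607 on the plus strand (MX1).
HERC5: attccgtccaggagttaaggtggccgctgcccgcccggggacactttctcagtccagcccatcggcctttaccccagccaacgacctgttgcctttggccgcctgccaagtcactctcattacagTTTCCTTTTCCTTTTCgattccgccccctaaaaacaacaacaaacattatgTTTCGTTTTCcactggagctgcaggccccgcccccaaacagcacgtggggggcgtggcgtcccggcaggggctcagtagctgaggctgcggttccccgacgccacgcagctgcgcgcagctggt
IFI44: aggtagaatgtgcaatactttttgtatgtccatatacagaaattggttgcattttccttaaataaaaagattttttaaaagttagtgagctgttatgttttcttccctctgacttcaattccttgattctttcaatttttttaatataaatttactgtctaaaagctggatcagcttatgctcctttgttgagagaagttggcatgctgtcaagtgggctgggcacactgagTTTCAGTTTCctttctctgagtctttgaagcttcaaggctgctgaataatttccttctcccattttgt
IFIH1: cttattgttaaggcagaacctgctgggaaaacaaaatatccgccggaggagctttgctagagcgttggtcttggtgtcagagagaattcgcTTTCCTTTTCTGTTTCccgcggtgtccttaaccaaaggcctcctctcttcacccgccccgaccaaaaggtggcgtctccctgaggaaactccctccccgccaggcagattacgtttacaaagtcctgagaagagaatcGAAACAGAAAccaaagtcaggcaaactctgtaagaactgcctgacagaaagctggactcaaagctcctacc
IFITM1: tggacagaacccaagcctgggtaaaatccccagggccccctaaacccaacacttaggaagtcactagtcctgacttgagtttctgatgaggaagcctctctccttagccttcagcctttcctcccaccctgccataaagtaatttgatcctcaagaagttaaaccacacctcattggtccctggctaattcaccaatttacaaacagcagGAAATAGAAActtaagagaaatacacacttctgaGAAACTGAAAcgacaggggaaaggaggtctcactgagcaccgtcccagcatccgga
MX1: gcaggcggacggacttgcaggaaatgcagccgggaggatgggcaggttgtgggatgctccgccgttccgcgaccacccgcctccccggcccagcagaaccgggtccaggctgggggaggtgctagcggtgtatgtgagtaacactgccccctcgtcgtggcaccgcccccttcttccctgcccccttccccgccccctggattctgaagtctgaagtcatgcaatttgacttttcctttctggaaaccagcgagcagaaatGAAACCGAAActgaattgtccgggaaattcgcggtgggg
A match says only that these letters are in the window. Among members past the filter, the 22 with an ISRE core and a test had a median untreated difference between lines of -0.99 on the log2 scale (range -5.90 to 4.07), and the 9 without one had a median of -1.92 (range -3.43 to -0.52), so the element was present on both sides of the comparison.

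The arrays shared a trimmed mean of 150.02 (2% cut at each end), with medians between 10.6 and 14.1. This common scale was read from the values and is not stated in the labels. MAP3K14, the hairpins' target, had signals of 33.3 in Z-138 NIKsh#1 with doxycycline and 55.2 without it, 49.2 and 52.0 in Z-138 NIKsh#2, 63.4 and 86.9 in Maver-1 NIKsh#1, and, for NIKsh#2 in Maver-1, 55.7 and 79.3. Under the control hairpin it stood at 55.4 with and 46.4 without doxycycline in Z-138, and at 132.7 with and 77.2 without in Maver-1. It was lower with doxycycline in all 4 NIKsh cultures and higher in both NTC cultures, and the mean change over the NIKsh cultures, -0.42 ± 0.18 (SE) on the log2 scale, did not pass the test (limma, adjusted p = 0.529). All 6 measured B cell markers reached the filter signal in both lines, as did CCND1 and SOX11 of the 3 mantle cell lymphoma markers, whereas CD5 reached it in Maver-1 but not in Z-138. RNA quality, read as the 3'/5' signal ratio of ACTB, differed: untreated Z-138 had ratios of 2.33 to 2.92 and untreated Maver-1 ratios of 3.66 to 6.88. Doxycycline arrays of Z-138 had higher ratios than their untreated partners, with 6.34 against 2.33 for NTC, 4.62 against 2.86 for NIKsh#1 and 5.09 against 2.92 for NIKsh#2.

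Most of the interferon-stimulated genes were lower in Z-138 than in Maver-1 when neither line had met doxycycline. IFI44, the gene of a cytoplasmic protein, was at least 27.2-fold lower, HERC5, the ligase that attaches ISG15 to other proteins, at least 16.9-fold lower, and the antiviral enzyme gene OAS2 20.3-fold lower. Where a gene lay under the filter signal of 12.55 on every untreated Z-138 array, its fold is given as "at least", with each signal below 12.55 raised to it; the filter signal stands in for detection calls, a choice made after seeing the data. A small set went the other way, led by IFITM1, whose product holds viruses back at the cell membrane, at 16.7-fold higher in Z-138. In the limma comparison of 3 untreated cultures against 3, with Benjamini-Hochberg adjustment over 11548 genes, 34 of the 39 tested members were lower in Z-138, 4 were higher, and 1, IFI27, did not pass. The lines differed broadly: 60.2% of all genes passed, 34.8% lower in Z-138 and 25.5% higher. The median member differed by -1.10 on the log2 scale, against -0.08 over all genes. In bulk samples, fewer cells expressing a gene and less RNA per cell cannot be told apart.

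**Figure D1:**
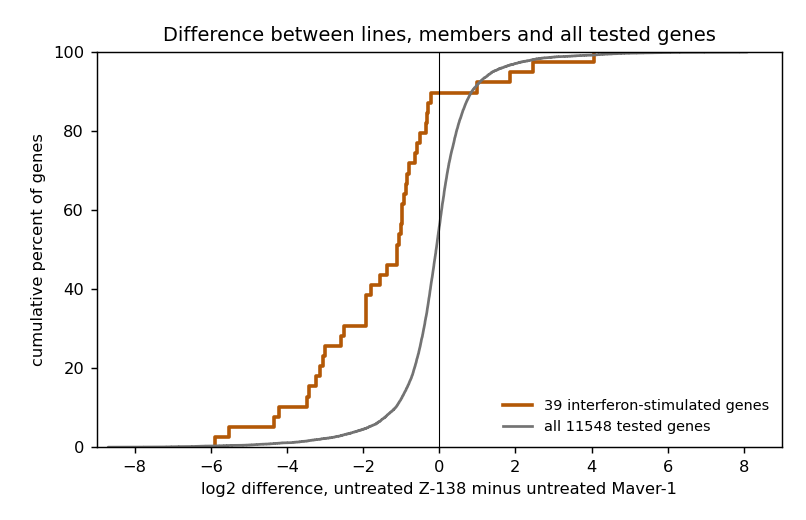
Cumulative share of genes (vertical axis) by the untreated Z-138 minus Maver-1 difference in log2(signal + 3) (horizontal axis), for the 39 tested interferon-stimulated genes and for all 11548 tested genes. The curve of the members lies to the left of the curve of all genes, with medians of -1.10 and -0.08.

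The size of the differences can be read against all genes. Of the 39 tested members, 22 were at least 2-fold lower in Z-138, where 12.26% of all genes were, and 12 were at least 4-fold lower, where 4.55% of all genes were. The signals of 34 members in all 3 untreated Z-138 cultures lay below those in all 3 untreated Maver-1 cultures (37.9% of all genes), and those of 4 lay above (27.9%). Over all 12 arrays, with doxycycline included, 28 members were lower in Z-138 without overlap (20.13% of all genes) and 4 were higher (16.72%).

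The filter bears on these counts. In untreated cultures, 27 members reached a mean signal of 12.55 in both lines, 11 in Maver-1 alone, 2 in Z-138 alone (OASL and LY6E) and 3 in neither (IFI44L, RSAD2 and CMPK2). The 11 that reached it in Maver-1 alone were IFI44, IFIT1, IFI6, OAS2, OAS3, HERC5, HERC6, DDX60, XAF1, PLSCR1 and GBP1, and a gene kept through 1 line had to differ. Among the 27 that reached it in both lines, 24 were lower and 2 higher in Z-138 in the same fit, and their median difference was -0.97 on the log2 scale, against -0.07 over the 10536 genes that did so. Of those 27, 12 were at least 2-fold lower (9.15% of those genes) and 3 at least 4-fold lower (2.02%). Without any filter, 37 of the 43 represented members passed in limma, 33 lower and 4 higher in Z-138, against 36% of 19775 genes, and the median member stood at -1.06 against -0.04 over all genes. IFIT1 passed in that fit, and DTX3L and IRF9 did not.

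**Figure D2:**
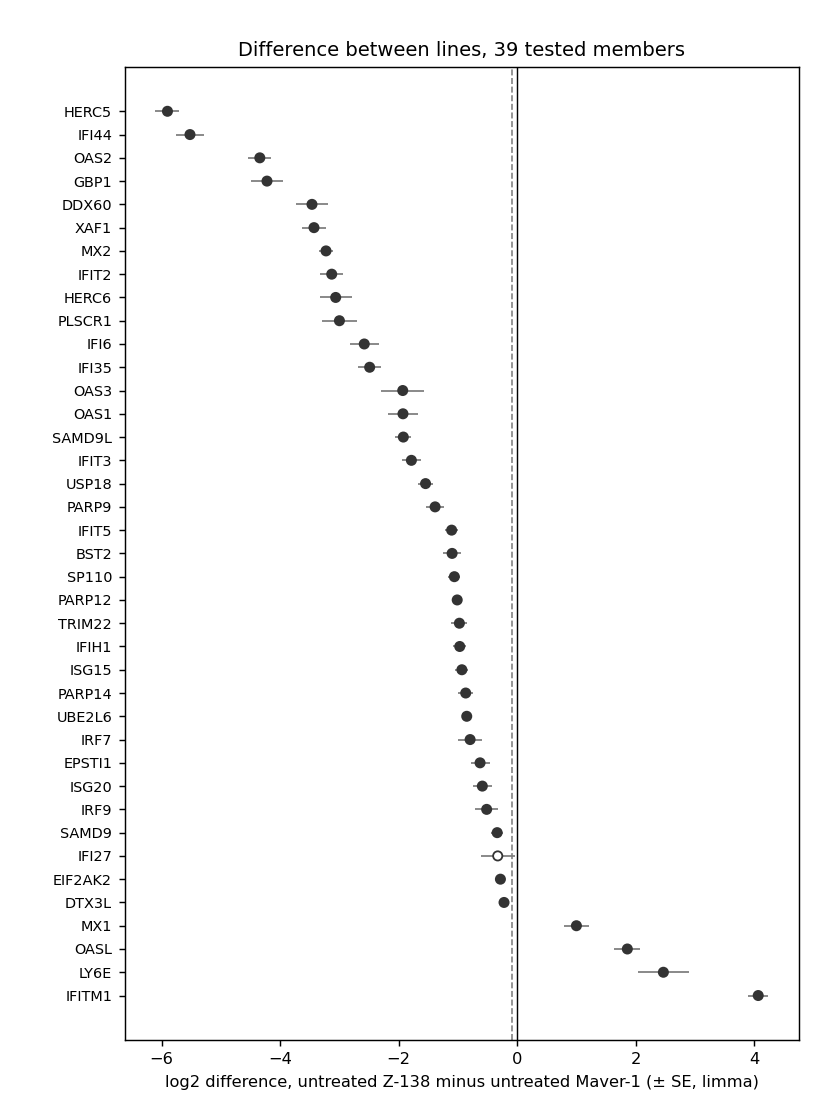
Untreated Z-138 minus Maver-1 difference in log2(signal + 3) for each of the 39 tested members, ordered by size, as points with bars for 1 standard error of the limma model (3 cultures per line). The dashed line is the median of all tested genes, -0.08. The points run from HERC5 at -5.90 to IFITM1 at 4.07, and the open point, IFI27 at -0.33, is the member that did not pass.

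Among the genes of ISG15 and its attachment, HERC5 had signals of 0.4, 0.7 and 0.7 in untreated Z-138 NTC, NIKsh#1 and NIKsh#2, against 191.2, 223.6 and 222.5 in untreated Maver-1. With doxycycline it had 0.4, 2.4 and 4.5 in Z-138 and 205.7, 243.5 and 276.4 in Maver-1. All 6 Z-138 values lay at the bottom of the array scale, and the lines did not overlap. The untreated difference was -5.90 ± 0.20 (SE; limma, adjusted p = 7.289e-11), a size set by the pseudocount: it was -7.06 with a pseudocount of 1 and -3.78 with 16. HERC6, known in the mouse as the main ISG15 ligase, averaged 2.93 ± 1.83 in Z-138 and 45.3 ± 5.59 in Maver-1 (SD, n = 3 each). ISG15 itself was 1.91-fold lower, its conjugating enzyme UBE2L6 1.81-fold lower, and USP18, which removes ISG15 and also damps the interferon receptor, 2.92-fold lower in Z-138. HERC5 and HERC6 are neighbours 14022 bases apart on chromosome 4, and HERC6 was at least 3.59-fold lower.

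The oligoadenylate synthetases make a small RNA messenger on double-stranded RNA that activates RNase L. OAS2 had signals of 15.4, 8.8 and 11.6 in untreated Z-138 NTC, NIKsh#1 and NIKsh#2, against 268.8, 291.3 and 328.1 in untreated Maver-1, a difference of -4.34 ± 0.19 (SE). With doxycycline it had 15.6, 8.3 and 6.3 in Z-138 and 312.0, 341.8 and 329.9 in Maver-1. The lines did not overlap, and 1 of the 3 untreated Z-138 arrays reached the filter signal. Its neighbours on chromosome 12, OAS1 and OAS3, passed as well. OAS1 differed by -1.93, and OAS3, under the filter signal on every untreated Z-138 array, was at least 1.74-fold lower. OASL, a relative that has lost the synthetase activity and enhances RNA sensing by RIG-I, ran the other way, with 53.5, 43.6 and 47.9 in untreated Z-138 against 13.9, 10.8 and 9.1 in untreated Maver-1. It was 3.62-fold higher in Z-138 (1.86 ± 0.22; limma, adjusted p = 8.34e-06), with no overlap, and 1 of the 3 untreated Maver-1 arrays reached the filter signal.

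The IFIT proteins bind viral RNA that lacks the cap modifications of host messengers. IFIT2 had signals between 11.3 and 17.2 in the untreated Z-138 cultures (mean 13.4 ± 3.32) and between 133.5 and 144.0 in the untreated Maver-1 cultures (mean 138.5 ± 5.27; SD, n = 3 each), and was 8.75-fold lower in Z-138. With doxycycline it lay between 12 and 22.1 in Z-138 and between 113.0 and 181.7 in Maver-1. The lines did not overlap, and 1 of the 3 untreated Z-138 arrays reached the filter signal. IFIT3 was 3.45-fold lower and IFIT5 2.15-fold lower in Z-138. IFIT1, which lies between those genes on chromosome 10, averaged 2.17 ± 0.91 in Z-138 and 14.3 ± 5.62 in Maver-1 (SD, n = 3 each), low in both.

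MX1 and MX2 are dynamin-like GTPases that trap viral components, and they lie 11165 bases apart on chromosome 21. MX2 had 73.4, 68.9 and 78.6 in untreated Z-138 NTC, NIKsh#1 and NIKsh#2, against 743.2, 716.0 and 681.9 in untreated Maver-1, which made it 9.36-fold lower (-3.23 ± 0.12 SE; limma, adjusted p = 1.01e-10). MX1 had 109.3, 106.3 and 142.7 in Z-138, against 77.4, 58.5 and 42.4 in Maver-1, which made it 2.00-fold higher (1.00 ± 0.21 SE; limma, adjusted p = 0.00108). With doxycycline MX2 had 55.5, 66.2 and 82.5 in Z-138 and 719.7, 675.3 and 716.8 in Maver-1, and MX1 had 148.1, 99.8 and 174.2 in Z-138 and 62.6, 65.5 and 50.9 in Maver-1. Both separated the lines without overlap, in opposite directions. Other neighbouring members of 1 family kept a common direction: SAMD9L (-1.92) and SAMD9 (-0.34), whose products restrain growth and viral translation, were both lower in Z-138.

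The members DDX60, IFIH1 and EIF2AK2, which act in the sensing of viral RNA, were lower in Z-138 by very different amounts. DDX60, a helicase of the RIG-I-like receptor pathway, had 3.1, 5.6 and 1.6 in untreated Z-138 NTC, NIKsh#1 and NIKsh#2, against 67.2, 75.8 and 55.5 in untreated Maver-1. With doxycycline it had 0.5, 4.1 and 2.5 in Z-138 and 58.1, 54.7 and 75.3 in Maver-1. It was at least 5.23-fold lower without overlap, and the Z-138 values were at the bottom of the scale. IFIH1, which encodes the RNA sensor MDA5, was 1.96-fold lower. EIF2AK2, the gene of the kinase PKR that stops translation on double-stranded RNA, was 1.22-fold lower.

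The transcription factor genes of the response, IRF7 and IRF9, were 1.74-fold and 1.43-fold lower in Z-138 (limma, adjusted p = 0.00489 and 0.0305). IRF7 did not pass with the ACTB ratio as a covariate or on the arrays with doxycycline. IRF9 did not pass under those settings, without a filter, or in 4 of 6 fits that left out a culture (Z-138 NIKsh#2 or any of the 3 Maver-1 cultures). Of the ADP-ribosylation and ubiquitin group, PARP9 was 2.61-fold, PARP12 2.02-fold and PARP14 1.83-fold lower. A second, dimmer PARP9 probe set differed by only -0.49 on the log2 scale, and PARP9 did not pass on the arrays with doxycycline. DTX3L, which encodes the ubiquitin ligase partner of PARP9 and starts beside it on chromosome 3 with the annotated genes overlapping by 446 bases, differed least of those that passed (1.17-fold lower; limma, adjusted p = 0.0425), and its call was lost in 5 of those 6 fits, all but the one without Z-138 NIKsh#2.

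Several membrane, nuclear and death-related members were also low in Z-138. GBP1, a large GTPase that coats intracellular pathogens and is driven most strongly by interferon gamma, had 0.3, 1.7 and 1.7 in untreated Z-138 NTC, NIKsh#1 and NIKsh#2, against 105.0, 60.2 and 66.4 in untreated Maver-1. XAF1, which encodes an antagonist of the apoptosis inhibitor XIAP, had 11.3, 11 and 11 in Z-138, against 183.7, 149.6 and 119.9 in Maver-1. With doxycycline GBP1 had 2.0, 1.6 and 1.1 in Z-138 and 88.7, 77.2 and 45.4 in Maver-1, and XAF1 had 9.0, 19.9 and 9.1 in Z-138 and 143.5, 168.9 and 142.2 in Maver-1. GBP1 was at least 5.97-fold and XAF1 at least 11.9-fold lower, neither with overlap. IFI44, a cytoplasmic interferon-induced protein gene, had 2.0, 6.2 and 6.2 in Z-138, against 323.0, 334.0 and 370.1 in Maver-1 (-5.52 ± 0.24 SE; limma, adjusted p = 4.685e-10). With doxycycline it had 5.7, 4.1 and 4.8 in Z-138 and 328.8, 301.1 and 337.8 in Maver-1, again far apart. PLSCR1, the gene of a phospholipid scramblase with antiviral activity, was at least 2.43-fold lower, and BST2, which encodes the virion tether tetherin, was 2.14-fold lower. The nuclear body gene SP110 was 2.09-fold lower and the restriction factor gene TRIM22 1.97-fold lower.

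Besides MX1 and OASL, 2 membrane protein genes were higher in Z-138. IFITM1 had 286.2, 261.9 and 289.3 in untreated Z-138 NTC, NIKsh#1 and NIKsh#2, against 11.5, 15.5 and 14.8 in untreated Maver-1 (4.07 ± 0.17 SE; limma, adjusted p = 3.396e-10). Its relatives IFITM2 and IFITM3, which act in endosomes and are not among the 44, were lower in Z-138, at -1.81 ± 0.19 (SE) and -0.60 ± 0.22 (SE; limma, adjusted p = 3.393e-06 and 0.031). LY6E, a lipid-anchored surface protein gene, had 49.1, 45.2 and 48.0 in Z-138, against 9.1, 0.7 and 14 in Maver-1, and was 5.52-fold higher (limma, adjusted p = 2.464e-04). With doxycycline IFITM1 had 119.2, 259.1 and 126.3 in Z-138 and 12.2, 18.0 and 12.3 in Maver-1, and LY6E had 35.5, 45.3 and 27.2 in Z-138 and 1.4, 5.4 and 7.3 in Maver-1. Neither overlapped between lines, 2 of the 3 untreated Maver-1 arrays reached the filter signal for IFITM1 and 1 of 3 for LY6E, and the Maver-1 cultures varied most among themselves in LY6E, with an SD of 1.16 on the log2 scale.

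**Figure D3:**
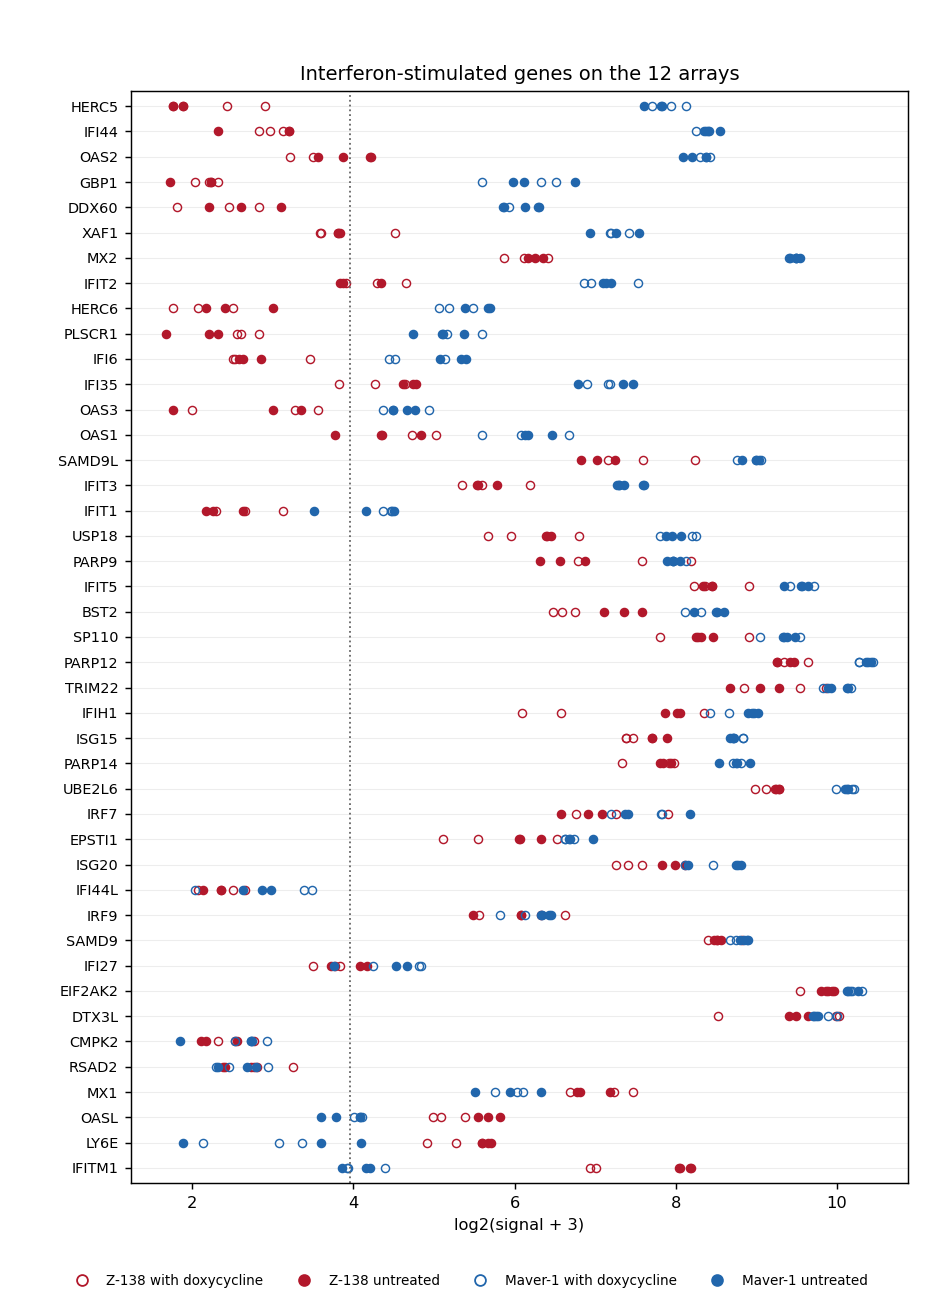
Level of each of the 43 represented members (down the page, ordered by untreated line difference) as log2(signal + 3) on the horizontal axis, with 1 circle per array, red for Z-138 and blue for Maver-1, open with doxycycline and filled without. The dotted line marks the filter signal of 12.55. From HERC5 down to IFIT2 the Z-138 circles lie left of the Maver-1 circles without overlap, and for MX1, OASL, LY6E and IFITM1 at the foot they lie to the right.

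Probe sets of 1 member mostly shared a direction but not a size. For the 21 tested members with more than 1 probe set, the line difference had 1 sign over all probe sets in 20, and PLSCR1 was the exception through a dim probe set. When only probe sets reaching the filter signal were read, all 21 had 1 sign. The mean of all probe sets gave IFIT2 -1.77 where the chosen one gave -3.13, XAF1 -1.97 against -3.43, GBP1 -2.90 against -4.22 and OAS2 -3.05 against -4.34. The other probe sets included dim ones, such as one for IFIT2 that averaged 3.63 over untreated Z-138 and 5.63 over untreated Maver-1. With doxycycline in the medium, 38 of the 39 members kept the sign of their untreated difference, and the exception was IRF9.

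Within a line, most members lay close together over the untreated cultures. The median SD of the members over the 3 cultures was 0.14 on the log2 scale for Z-138 (0.147 over all genes) and 0.154 for Maver-1 (0.123 over all genes). Untreated NIKsh cultures against the untreated NTC culture of the same line gave median member differences of -0.03 (NIKsh#1) and 0.10 (NIKsh#2) in Z-138 and 0.03 for both in Maver-1. Members at least 1.5-fold apart from NTC numbered 4 and 6 of 39 in Z-138, against 7.96% and 9.01% of all genes. In Maver-1 they numbered 4 and 8, against 5.87% and 6.83%. The widest difference in Maver-1 was that of LY6E, at -1.71 in NIKsh#1 on signals of 0.7 against 9.1 in NTC. The widest in Z-138 was OAS3, at 1.23 and 1.59 in NIKsh#1 and NIKsh#2, on signals of 5.0 and 7.2 against 0.4 in NTC. Those LY6E and OAS3 signals all lay under the filter signal.

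The machinery around the members was compared between the untreated lines from lists of named genes. None of the 18 measured interferon ligand genes reached the filter signal in either line, and their summed signal over an untreated or treated array was 35.2 to 50.6 in Z-138 and 34.1 to 47.3 in Maver-1. Of all tested genes, 25.5% were higher and 34.8% lower in Z-138, and the counts below stand beside those shares. Of 10 tested receptor and JAK-STAT genes, 3 were higher and 6 lower in Z-138. The shared type I receptor chain gene IFNAR1 was 1.71-fold lower and the interferon gamma receptor chain gene IFNGR2 1.62-fold lower, while the interferon lambda receptor gene IFNLR1 was 1.66-fold and the kinase gene JAK2 2.34-fold higher. Among 6 other interferon regulatory factor genes, 1 was higher (IRF4, 1.44-fold) and 3 lower, IRF5 by 2.03-fold, IRF3 by 1.41-fold and IRF2 by 1.36-fold.

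Of 15 tested nucleic acid sensor and adaptor genes, 3 were higher and 6 lower in Z-138. For all genes the shares were 25.5% higher and 34.8% lower, close to this count. RIGI, the gene of the RNA sensor RIG-I, was 2.72-fold lower and IFI16 1.44-fold lower. The DNA sensor gene AIM2 was also lower, with a mean of 2.7 in untreated Z-138 against 34.93 in untreated Maver-1. Its untreated Z-138 signals all lay under the filter signal, so no fold is given. TLR7, which encodes another RNA sensor, was 1.54-fold higher. TRAF3, also an adaptor in this list, averaged 317.2 ± 49.5 in Z-138 and 1.83 ± 2.15 in Maver-1 (SD, n = 3 each), the line labelled with its deletion. Of 9 negative regulators, 4 were higher and 2 lower, beside the same shares of all genes. SOCS3, an inhibitor of JAK kinases, had 186.9, 206.0 and 199.3 in untreated Z-138 NTC, NIKsh#1 and NIKsh#2, against 12.1, 7.6 and 9.1 in Maver-1, and was 16.1-fold higher (4.01 ± 0.19 SE; limma, adjusted p = 1.19e-09). Its relative SOCS1 was 1.57-fold lower. The separation of SOCS3 was without overlap and opposite in direction to most of the 44 genes. The Maver-1 signals of SOCS3 all lay under the filter signal, so its fold is set in part by the pseudocount.

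A further list of 29 tested interferon-induced genes outside the 44 had 20 lower and 3 higher in Z-138, with a median of -0.93. Among all tested genes 34.8% were lower and 25.5% higher, with a median of -0.08. LGALS3BP, a secreted glycoprotein gene, was 25.4-fold lower, GBP3 5.93-fold, the antibody receptor and ubiquitin ligase gene TRIM21 4.84-fold and the DNA-editing enzyme gene APOBEC3G 2.95-fold lower. Markers of other cells also differed between the lines. The summed signal of 6 markers of plasmacytoid dendritic cells, which are strong interferon producers, was 28.6 to 61.7 in Z-138 and 2317.5 to 2869.1 in Maver-1, carried by TCL1A and LILRA4, of which TCL1A is also a B cell gene. Of the 6, 3 reached the filter signal in Maver-1 and 2 in Z-138, as means over all arrays of a line. CLEC4C, which defines those cells, averaged only 2.03 in untreated Z-138 and 2.63 in untreated Maver-1. What part these markers have in the line comparison was not tested. T and NK cell markers summed to 92.2 to 219.3 in Z-138, mostly CD3G, and to 21.4 to 42.3 in Maver-1. Monocyte markers summed to 18.8 to 35.5 in Z-138 and to 17.4 to 38.6 in Maver-1. Fibroblast, epithelial and endothelial markers summed to 205.6 to 666.6 in Z-138 and to 904.1 to 1237.9 in Maver-1. Of 5 of them tested, 4 were lower in Z-138, EPCAM, KRT18, KRT8 and PECAM1, and COL1A1 was higher.

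The next comparison asked whether doxycycline and hairpin induction shift the members whatever the hairpin targets. In a limma model with culture as a block, 0 of 39 members passed for doxycycline over all 6 cultures, as did 0% of all genes. At an unadjusted p under 0.05 there were 5 of 39 members, against 839 of 11548 genes. The median member change was -0.02 on the log2 scale, against 0.02 over all genes. Median member changes per culture for NTC, NIKsh#1 and NIKsh#2 were 0.02, -0.03 and -0.07 in Z-138, and 0.00, 0.01 and 0.01 in Maver-1. The members with the smallest p were BST2 (-0.44), PARP9 (0.49), TRIM22 (0.24), IFIH1 (-0.62) and ISG20 (-0.34), each with an adjusted p of 0.679.

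**Figure D4:**
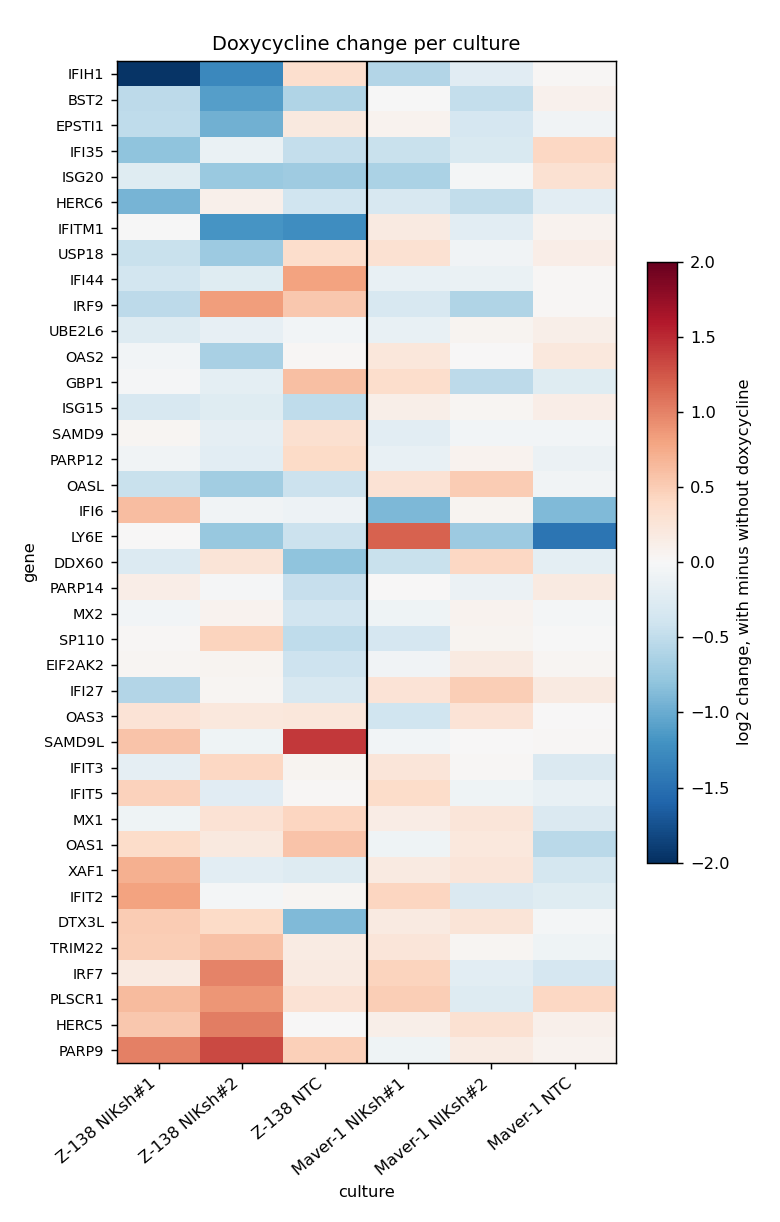
Change in log2(signal + 3) with doxycycline, relative to the same culture without it, for the 39 tested members (down the page) in the 6 cultures (across), with colour for the size and sign. IFIH1 is lower in all 4 NIKsh cultures, deepest in Z-138 NIKsh#1 at -1.96, and the Maver-1 columns are paler than the Z-138 columns. Changes over all tested genes were smaller in Maver-1 too, with an SD of 0.264 to 0.351 per culture, against 0.46 to 0.541 in Z-138.

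The 4 NIKsh cultures address knockdown of NIK. Again 0 of 39 members passed in limma, against 0.0433% of all genes. An unadjusted p under 0.05 was reached by 7 of 39 members, against 1037 of 11548 genes. The median member change was -0.01 on the log2 scale, against 0.01 over all genes. NFKB2 and RELB, genes of the alternative NF-kB pathway that NIK drives, stood at -0.85 and -0.72. Neither passed (limma, adjusted p = 0.205 and 0.346). No member was 1.5-fold higher in all 4 cultures (0.0779% of genes) or 1.5-fold lower in all 4 (0.191%), and none was 1.5-fold higher in all 6 cultures (0.00866%). IFIH1 had the smallest p, with a change of -1.02 ± 0.24 (SE; limma, adjusted p = 0.205), followed by TRIM22 (0.34), BST2 (-0.53), PARP9 (0.60) and DTX3L (0.33).

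Set against NTC, the NIKsh change with doxycycline again gave 0 of 39 members past the limma test, against 0% of genes. The unadjusted p was under 0.05 for 2 of 39 members, against 627 of 11548 genes. The median member differed by 0.13, against -0.03 over all genes. DTX3L stood at 0.79 ± 0.23 (SE; adjusted p = 0.876) and IFIH1 at -1.20 ± 0.42 (SE; adjusted p = 0.884). The changes of IFI44 and IFIH1 in all 4 NIKsh cultures lay below both NTC changes (6.45% of genes), and those of DTX3L, HERC5 and XAF1 lay above both (7.12%). A further probe set of IFI44, of XAF1 and of IFIH1, each reaching the filter signal, did not keep this order. Another probe set of IFIH1 did. HERC5, IFI44 and XAF1 had signals under 20 in every Z-138 array, so their changes there rest on dim values. In the Z-138 NTC culture DTX3L changed by -0.88, and 24.6% of all genes changed at least 1.5-fold. This share was 14.5% in Z-138 NIKsh#1 and 19.9% in Z-138 NIKsh#2. For Maver-1 it was 4.49% in NTC, 5.46% in NIKsh#1 and 9.51% in NIKsh#2.

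The NIKsh cultures were then read line by line. In the Z-138 NIKsh cultures 2 of 39 members passed, IFIH1 lower and PARP9 higher, where 2.14% of all genes passed (1.08% lower and 1.06% higher). IFIH1 had 65.2 with and 262.7 without doxycycline in Z-138 NIKsh#1, and 92.5 with and 231.3 without in NIKsh#2, against 323.6 with and 256.2 without in Z-138 NTC. Both NIKsh cultures fell below every other Z-138 array, and the NTC culture did not. The change was -1.63 ± 0.21 (SE), 3.09-fold lower (limma, adjusted p = 0.00654). In Maver-1, IFIH1 had 341.5 with and 515.9 without doxycycline in NIKsh#1, 401.0 with and 472.3 without in NIKsh#2, and 497.4 with and 489.2 without in NTC. It was lower in both NIKsh cultures there too, by less, and the change of -0.41 ± 0.21 (SE) did not pass (adjusted p = 0.998). The other 2 probe sets for IFIH1, both dim at 3.8 to 28.4, were also lower with doxycycline in all 4 NIKsh cultures, which made 12 of 12 changes negative, against 2 of 6 in the NTC cultures.

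PARP9 had 188.4 with and 91.8 without doxycycline in Z-138 NIKsh#1, 289.0 with and 114.1 without in NIKsh#2, and 107.2 with and 76.5 without in Z-138 NTC. Both NIKsh arrays with doxycycline exceeded every other Z-138 array, and the NTC culture was also higher with doxycycline, by 0.47. The change in NIKsh was 1.17 ± 0.20 (SE), 2.24-fold (limma, adjusted p = 0.0218). In Maver-1, PARP9 had 247.6 with and 262.3 without doxycycline in NIKsh#1, 276.8 with and 246.7 without in NIKsh#2, and 248.0 with and 234.9 without in NTC, close together throughout. A second, dimmer PARP9 probe set was higher in both Z-138 NIKsh cultures by only 0.35 and 0.24, and the mean of both probe sets did not pass (0.73; limma, adjusted p = 0.0946). PARP9 binds ADP-ribose marks together with DTX3L.

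DTX3L had 1013.5 with and 715.8 without doxycycline in Z-138 NIKsh#1, and 1036.7 with and 794.9 without in NIKsh#2, against 365.6 with and 675.0 without in Z-138 NTC. It was higher with doxycycline in both NIKsh cultures and lower in NTC. In Maver-1 it had 944.6 with and 830.3 without in NIKsh#1, 1021.5 with and 850.5 without in NIKsh#2, and 840.2 with and 866.4 without in NTC. The Maver-1 cultures followed the same order with smaller steps. The change in Z-138 NIKsh, 0.44, did not pass (limma, adjusted p = 0.105).

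**Figure D5:**
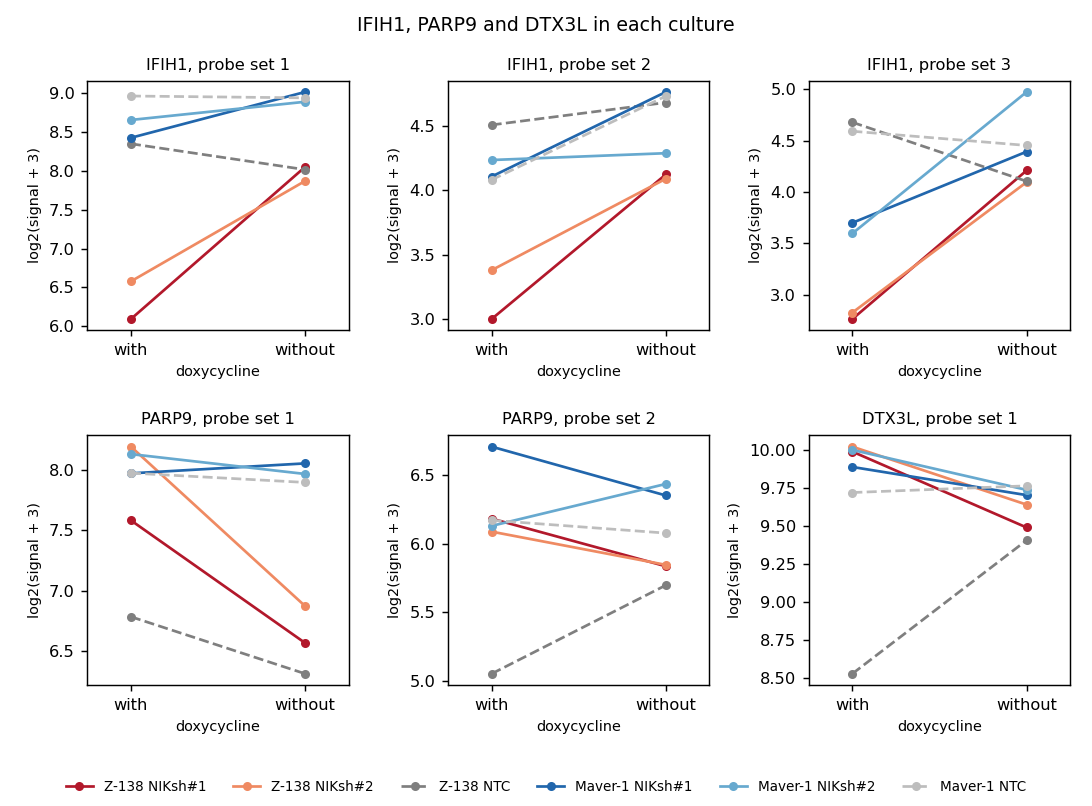
Level of the probe sets of IFIH1, PARP9 and DTX3L as log2(signal + 3) (vertical axis, scaled per panel), with and without doxycycline, and a line joining the 2 arrays of each culture; NTC lines are dashed. Probe set 1 is the one tested. For IFIH1 all 4 NIKsh lines are lower with doxycycline in each of the 3 panels, for PARP9 probe set 1 the Z-138 NIKsh lines are higher with it, and for DTX3L the Z-138 NTC line is lower with it.

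These calls in Z-138 rest on 2 cultures and on arrays that differed in RNA quality. With the ACTB ratio given above as a covariate, which left 1 residual degree of freedom, neither passed: IFIH1 stood at -4.03 and PARP9 at -0.19 (adjusted p = 0.9999 each). Left to Z-138 NIKsh#2 alone, the members added were BST2, IFITM1, IRF7 and TRIM22, with the lone culture assumed to vary like the others. They stood at -1.10, -1.18, 0.99 and 0.58 in NIKsh#2, and at -0.60, -1.24, 0.18 and 0.17 in Z-138 NTC.

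The next members in Z-138 did not pass. TRIM22 had 741.5 with and 527.4 without doxycycline in NIKsh#1, 930.0 with and 620.4 without in NIKsh#2, and 455.9 with and 405.7 without in NTC, a NIKsh change of 0.54 (limma, adjusted p = 0.0674). BST2 had 93.5 with and 135.1 without in NIKsh#1, 86.0 with and 187.7 without in NIKsh#2, and 104.5 with and 160.4 without in NTC, a NIKsh change of -0.81 (adjusted p = 0.109). TRIM22 was higher and BST2 lower with doxycycline in all 3 Z-138 cultures, NTC included. In Maver-1, TRIM22 ran from 908.7 to 1149.5 and BST2 from 275.1 to 383.8 over the 6 arrays. IFIH1 was the member at least 1.5-fold lower in both Z-138 NIKsh cultures, as were 2.1% of genes. PARP9 and PLSCR1 were at least 1.5-fold higher in both, as were 2.88% of genes, PLSCR1 on signals of 4.1 and 2.9 with and 1.6 and 0.2 without doxycycline.

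In the Maver-1 NIKsh cultures 0 of 39 members passed in limma, as did 0% of genes. An unadjusted p under 0.05 was reached by 0 of 39 members, against 458 of 11548 genes. None was 1.5-fold lower (0.658% of genes) or higher (0.537%) in both. The difference between the lines in the NIKsh change was tested directly. It gave 0 of 39 members, against 0.121% of genes (0.052% higher and 0.0693% lower). The unadjusted p was under 0.05 for 4 of 39 members, against 992 of 11548 genes. IFIH1 differed by -1.22 ± 0.30 (SE; limma, adjusted p = 0.281) and PARP9 by 1.13 ± 0.28 (SE; adjusted p = 0.287), so neither response was shown to differ between Z-138 and Maver-1. Without Z-138 NIKsh#2, IFIH1 passed that test (-1.55, adjusted p = 0.0086), and without Z-138 NIKsh#1, PARP9 did (1.28, adjusted p = 0.0266).

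Other members named by that comparison or by the others did not pass. OASL had 31.1 with and 43.6 without doxycycline in Z-138 NIKsh#1, 28.6 with and 47.9 without in NIKsh#2, and 38.9 with and 53.5 without in NTC. USP18 had 59.1 with and 81.5 without in Z-138 NIKsh#1, 47.8 with and 80.9 without in NIKsh#2, and 108.7 with and 84.6 without in NTC. OASL was lower with doxycycline in all 3 Z-138 cultures, and USP18 in both NIKsh cultures but not in NTC. In Maver-1 OASL ran from 9.1 to 14.2 and USP18 from 219.8 to 302.9. ISG20, an exonuclease gene, had 189.0 with and 225.1 without in Z-138 NIKsh#1, 149.6 with and 250.9 without in NIKsh#2, and 166.0 with and 274.3 without in NTC, lower in each of the 3. In Maver-1 it had 274.4 with and 426.9 without in NIKsh#1, 433.9 with and 444.3 without in NIKsh#2, and 348.6 with and 281.4 without in NTC. SAMD9L had 189.7 with and 126.5 without in Z-138 NIKsh#1, 140.3 with and 149.4 without in NIKsh#2, and 299.0 with and 109.9 without in NTC. Its widest step, 1.42 on the log2 scale, was thus in the Z-138 NTC culture, and in Maver-1 it ran from 430.2 to 529.8.

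Genes of the surrounding pathway were also read in the Z-138 NIKsh cultures. Of 10 receptor and JAK-STAT genes, 2 were lower and 0 higher, IFNAR1 at -0.94 and IFNGR2 at -0.73 (limma, adjusted p = 0.0449 and 0.02). Of 9 negative regulators, SOCS3 was lower, at -1.30 (adjusted p = 0.0404), and of 29 further interferon-induced genes, APOBEC3G was lower, at -1.27 (adjusted p = 0.00805). In the Z-138 NTC culture those 4 genes stood at 0.65, 0.31, 0.16 and 0.29. RELB, a target and subunit of the alternative NF-kB pathway that NIK drives, was lower in Z-138 NIKsh (-1.17; adjusted p = 0.0477), and stood at -0.24 in Z-138 NTC. NFKB2 and MAP3K14, the other 2 genes of the alternative NF-kB list, stood at -0.92 and -0.38 in Z-138 NIKsh and did not pass (adjusted p = 0.109 and 0.501). Over all genes 1.08% passed as lower there, and with the ACTB ratio as a covariate 0 genes passed, these included. None of the 6 interferon regulatory factor genes and none of the 15 sensor and adaptor genes passed there.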

How the data were processed

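Total RNA of the 12 cultures, amplified and labelled with biotin per the labels, was read on Affymetrix arrays. The authors deposited a linear intensity for each probe set, made with MAS5 per the submitters' processing notes, whose version is not given in the sources used here. Of 54675 probe sets, 41097 had 1 symbol in the platform annotation, 1801 had several and 11777 were unnamed there; 62 control probe sets were not tested. Of the 43 probe sets chosen, 11 end in _s_at and 2 (EIF2AK2 and SP110) in _x_at, types that can bind related transcripts. No further normalization was applied, and signals were analysed as log2(signal + 3), which understates changes of dim genes. Detection calls were not used, and the number of arrays limits precision. The linear models used limma 3.58.1 under R 4.3.3 (intensity trend, two-sided moderated tests, Benjamini-Hochberg over all genes past the filter, threshold 0.05), after checking on simulated data. Tables and figures used Python 3.11.15, pandas 2.3.3 and matplotlib 3.10.9.

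The line comparison used the 6 untreated arrays. Doxycycline models used all 12 with culture as a fixed block, since per the labels the cells of each construct were split between media; the correlation across genes of the deviations of paired NIKsh arrays, -0.038 for Z-138 and 0.202 for Maver-1, did not show the pairing in Z-138. Values on every array are given for members with the 8 largest non-overlapping line differences each way. They are also given for members passing a doxycycline test and for those with the 5 smallest p per comparison. IFIT2 is given as ranges, and so are the Maver-1 arrays of BST2, OASL, SAMD9L, TRIM22 and USP18 in the doxycycline comparisons. Other lists give up to 4 genes each. IFITM2, IFITM3, IRF2, IRF3, SOCS1, TLR7 and PLSCR1 were added after their values were seen. Alternatives were the pseudocount, the filter, quantile normalization, the mean of probe sets, the ACTB ratio, the blocks and each culture left out. The members and lists were chosen with earlier results of these data known.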

Additional observations from a re-analysis of the deposited data

Results flagged for a closer look

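Among the 39 tested members, the 4 NIKsh changes with doxycycline were searched for 1 culture far from the other 3, which chance gives in about 1 of 20 genes. OAS3 stood at -0.396 on the log2 scale in Maver-1 NIKsh#1, while the other 3 NIKsh cultures lay between 0.21 and 0.279. SAMD9L stood at 0.573 in Z-138 NIKsh#1, while the others lay between -0.089 and 0.002.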

How the results depend on the processing

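The count of members that differed between the untreated lines, 38 of 39, fell to 20 of 20 with the filter at the 75th percentile, which tests fewer genes, and leaving out 1 culture gave 35 to 37, with IRF9 lost in 4 and DTX3L in 5 of those 6 fits. Over the 27 members reaching the filter signal in both lines, counted after seeing the data, it was 26. It was 32 with the ACTB ratio as a covariate (without DTX3L, EIF2AK2, IRF7, IRF9, OAS3 and SAMD9). On the arrays with doxycycline it was also 32, with IFI27 gained and DTX3L, EPSTI1, IRF7, IRF9, PARP9, SAMD9 and TRIM22 lost. With construct as a replicate block it was 37, where DTX3L was lost. Construct numbers did not pair the lines (correlations of -0.14, -0.068 and -0.086). Over all genes, 6956 became 4001 with the covariate and 4195 on the doxycycline arrays. In Z-138 NIKsh the 2 members became 1 with the mean of all probe sets and 0 with the ACTB covariate, and leaving out a culture gave 2 to 6; without the replicate block they stayed 2. Under that covariate PARP9 turned to -0.194 in Z-138 and to -0.289 in the difference between lines, and USP18 turned to 1.112 in that difference; the cause was not tested. The difference between lines gave 0 to 1 members when a culture was left out. SAMD9L in NIKsh minus NTC was -0.61, turned to 0.085 without the Z-138 NTC culture and stood at -1.313 without the Maver-1 NTC culture.

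Over all genes, the 5 calls in 4 NIKsh cultures became 16 without the replicate block, 3 without a filter, 2 at the 75th percentile, 3 with the mean of probe sets and 0 to 5 with a culture left out. The 247 in Z-138 became 164, 155 and 120 under those 3 settings, 0 with the ACTB covariate and 248 to 918 with a culture left out. The 0 in Maver-1 became 3 with the covariate and up to 42 with a culture left out. The 14 in the difference between lines became 9, 8, 1 and 0 under those 4 settings, and 9 to 423 with a culture left out. No member was called in the other doxycycline comparisons under any alternative run. With 2 hairpins per line and 1 NTC culture, small changes cannot be seen. Larger ones can also go uncalled: NFKB2 stood at -1.47 in NIKsh minus NTC and did not pass (limma, adjusted p = 0.876).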
